A study of Mus musculus with 4 samples.

Results

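Bipolar cells are the interneurons that carry photoreceptor signals to the inner retina, and they fall into rod bipolar, ON cone bipolar and OFF cone bipolar types. Their types are set up after birth by combinations of transcription factors. Homeobox proteins of the paired, Iroquois and LIM families, basic helix-loop-helix repressors and the PR-domain protein Prdm8 are expressed in particular bipolar types, and mice that lack several of these genes singly form some types incompletely. Described here are 9 such genes, Vsx1, Irx5, Irx6, Lhx3, Lhx4, Isl1, Bhlhe22, Bhlhe23 and Prdm8. They were chosen by gene symbol and all 9 were found among the 22558 symbols of the tables.

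The study sequenced RNA of whole mouse retina at P7 and P14 (postnatal days 7 and 14), from mice with the genotype Fezf2KO (knockout, KO) and from wildtype control littermates, all on the C57/BL/6J background. Fezf2 is a zinc-finger transcription factor, and the sources used here say neither how the allele was made nor how many animals or retinas went into a library. Each of the 4 combinations of genotype and age is 1 library, so a comparison of 2 libraries has no replicate check. Levels are in FPKM (read fragments per unit of transcript length and of library size), each deposited with a lower and an upper bound. These bounds reflect the counting of reads in 1 library and not how mice or dissections vary. Below, a gene counts as higher or lower beyond counting error if its bounds in one library lie wholly above or below those in the other.

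Fezf2 was low in both knockout libraries. It was at 8.32 FPKM (control) and 0.592 FPKM (knockout) at P7, and at 4.02 and 0.126 FPKM at P14. All 12 rod and all 12 cone marker genes examined were above 1 FPKM in every library. Genes of tissue around the retina were unequal between the libraries: 10 genes of lens, vitreous, iris and ciliary body summed to 16.2 FPKM (control) and 41.4 FPKM (knockout) at P7, and to 71.0 and 9.15 FPKM at P14. The 6 blood genes examined summed to 291, 339, 1180 and 356 FPKM in the same order. Beyond counting error, 6 of 8 measured genes of the first list were higher in the knockout at P7 and 7 of 7 lower at P14, and 1 of 5 blood genes was higher and 5 of 5 were lower. Pigment epithelium genes had 3 of 8 higher at P7 and 7 of 9 lower at P14, and immediate early genes, which respond to activity and handling, 1 of 7 and 6 of 8 higher. The part of these genes' tissues, and of handling, in the results below was not tested. In whole retina, fewer cells of a type and less RNA per cell cannot be told apart.

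All 9 genes were at 2.95 FPKM or more in every library. Isl1, a LIM homeobox gene of ON bipolar cells that ganglion cells and starburst amacrine cells also express, had the highest level in each library, and Irx5 the lowest. In the control at P7 the order was Isl1 (88.8 FPKM), Prdm8 (51.4), Vsx1 (33.3), Bhlhe23 (30.8), Lhx4 (28.5), Bhlhe22 (24.5), Lhx3 (16.1), Irx6 (11.6) and Irx5 (7.56). From Vsx1 to Bhlhe22 each gene had bounds that overlapped those of the next, and the other neighbours in this order were apart. In the control at P14 Bhlhe23 and Bhlhe22, at 20.7 and 19.3 FPKM with overlapping bounds, stood above Vsx1 at 15.1 FPKM. Counting error was small for most genes, with half-widths of the bounds from 3.54% to 20.2% of the level, widest for Irx5 in the control at P14. The deposited level lay above its own upper bound for 4 genes in the control at P7, 5 in the knockout at P7 and 1 in the knockout at P14, so bounds were compared with bounds only.

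**Figure D1:**
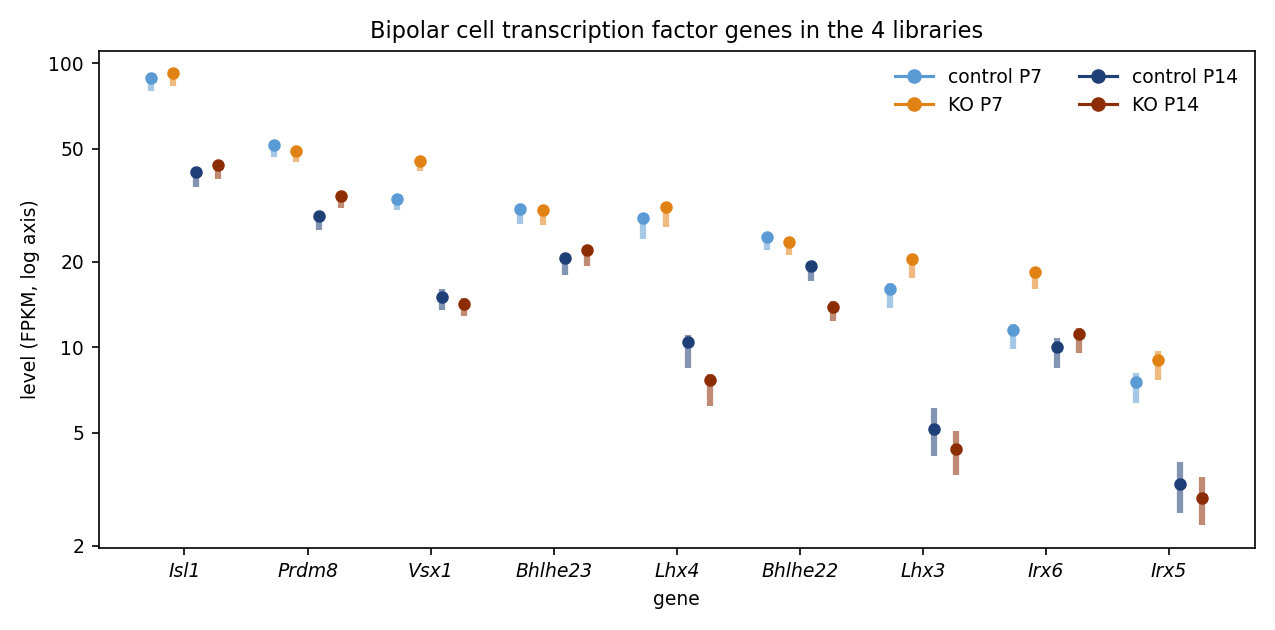
Level of each gene in FPKM (log axis) in the 4 libraries; points are deposited levels and vertical bars run from the lower to the upper bound. Points of P14 (dark) sit below those of P7 (light) for every gene, and KO and control part most for Vsx1 and Irx6 at P7 and for Bhlhe22 and Lhx4 at P14.

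At P7, 3 homeobox genes of OFF cone bipolar cells had higher levels in the knockout retina. Vsx1, a paired-type homeobox gene needed for the late differentiation of OFF cone bipolar cells, was at 45.5 FPKM in the knockout library (bounds 41.8 to 45.5) and 33.3 FPKM in the control (30.4 to 33.8), a log2 difference of 0.44 after adding 1 FPKM to each level, the scale of every difference given here. Irx6, an Iroquois homeobox gene of a subset of OFF cone bipolar cells, was at 18.5 FPKM (16.0 to 18.9) against 11.6 FPKM (9.88 to 12.1), a difference of 0.63. Lhx3, a LIM homeobox gene found in OFF cone bipolar types, was at 20.4 FPKM (17.6 to 20.8) against 16.1 FPKM (13.8 to 16.8), a difference of 0.32. The bounds of these 3 genes were apart, those of Lhx3 no longer when doubled in width. Irx5, which lies in the same cluster of Iroquois genes on chromosome 8 as Irx6 and acts in OFF cone bipolar development, was at 9.04 against 7.56 FPKM (0.23), with overlapping bounds.

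The remaining 5 genes had overlapping bounds at P7. Lhx4, a LIM homeobox gene of cone photoreceptors and of bipolar cells, was at 31.3 FPKM in the knockout and 28.5 FPKM in the control library (0.13). Isl1 was at 92.3 against 88.8 FPKM (0.06). Bhlhe22 and Bhlhe23 encode related repressors, the first expressed in OFF cone bipolar and amacrine cells and the second in rod bipolar cells. Bhlhe22 was at 23.6 against 24.5 FPKM (-0.05) and Bhlhe23 at 30.5 against 30.8 FPKM (-0.01). Prdm8, a PR-domain gene required in rod bipolar and some OFF cone bipolar cells, was at 49.3 against 51.4 FPKM (-0.06). In total 3 of 9 genes were higher beyond counting error and 0 lower, where 7.33% of 12664 genes at 1 FPKM or more in either library were higher in that sense and 6.1% were lower. The median difference of the 9 genes was 0.13, against 0.01 over all these genes.

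The size of the P7 differences can be read against all genes. That of Irx6 was above those of 99.7% of the genes, that of Vsx1 above 99.1% and that of Lhx3 above 97.9%. The rest of the 9 ran from 94.5% for Irx5 down to 32.4% for Prdm8. Cone photoreceptor genes were on balance higher at P7 too, with 5 of 12 higher beyond counting error, 0 lower and a median of 0.18, and so were horizontal cell genes, with 3 of 8 higher, 0 lower and a median of 0.16. Ganglion cell genes had 5 of 14 higher beyond counting error, 0 lower and a median of 0.14. Genes of bipolar cells in general and of ON bipolar cells were on balance lower, with 7 of 20 lower beyond counting error, 1 higher and a median of -0.17. ON cone bipolar genes, listed apart from those, had 2 of 12 higher, 2 lower and a median of 0.17. This list shares Gnb3, which was higher, with the cone photoreceptor list. It also shares Calb1 with the horizontal cell list and Syt2 with the OFF cone bipolar list. OFF cone bipolar genes had 3 of 16 higher, 3 lower and a median of -0.07. Among these Neto1, whose protein associates with kainate receptors, stood at 7.78 against 4.01 FPKM in knockout and control (0.81), and the kainate receptor gene Grik1 at 10.9 against 13.4 FPKM (-0.28). Among the general and ON bipolar genes Gng13, a G protein gene of ON bipolar cells, was at 19.8 FPKM in the knockout and 28.7 FPKM in the control library (-0.51). Whether a change in these cells takes part in the higher levels of Vsx1, Irx6 and Lhx3 was not tested.

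At P14 Vsx1, Irx6 and Lhx3 had overlapping bounds in the knockout and control libraries. Vsx1 was at 14.3 FPKM in the knockout library (bounds 12.9 to 15.0) and 15.1 FPKM in the control (13.5 to 16.0), a difference of -0.08. Irx6 was at 11.2 against 10.1 FPKM (0.14) and Lhx3 at 4.38 against 5.16 FPKM (-0.19). Irx5 was at 2.95 against 3.31 FPKM (-0.13), Isl1 at 43.9 against 41.3 FPKM (0.08) and Bhlhe23 at 21.9 against 20.7 FPKM (0.08). All 6 had overlapping bounds.

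Beyond counting error at P14 were another 3 genes, 2 lower and 1 higher. Bhlhe22 was at 13.9 FPKM in the knockout library (bounds 12.4 to 14.5) and 19.3 FPKM in the control (17.2 to 20.2), a difference of -0.45. Lhx4 was at 7.66 FPKM (6.20 to 8.07) against 10.5 FPKM (8.49 to 11.0), a difference of -0.41. Prdm8 was higher, at 34.1 FPKM (30.9 to 34.3) against 28.9 FPKM (26.0 to 29.4), a difference of 0.23. Among 12803 genes 7.44% were higher and 8.24% lower in this sense, and the medians were -0.08 for the 9 genes and 0.00 for all. The sign of the first turned, to 0.08, when only those of the 9 at a mean of 5 FPKM or more were kept. The calls of Lhx4 and Prdm8 were lost when the bounds were doubled in width. The levels of Prdm8 were 1.18-fold apart.

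Lhx4 and Prdm8 differed in opposite directions at P14, and their promoters are shown to compare them. They are the 250 bases before the start in RefSeq (GRCm38.p6), 5′ to 3′ on the strand of the gene, with capitals for matches to CAGCTG, an E-box of basic helix-loop-helix proteins, to TAATCC, the site of Otx2 and Crx, or to the homeobox site TAATTA, searched on both strands. The Lhx4 stretch is chr1:155742028-155742277 on the minus strand and that of Prdm8 chr5:98180619-98180868 on the plus strand.
Lhx4: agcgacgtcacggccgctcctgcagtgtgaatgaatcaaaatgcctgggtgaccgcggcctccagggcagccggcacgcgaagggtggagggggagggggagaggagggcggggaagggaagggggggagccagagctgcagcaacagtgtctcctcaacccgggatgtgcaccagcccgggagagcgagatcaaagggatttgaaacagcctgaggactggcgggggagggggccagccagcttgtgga
Prdm8: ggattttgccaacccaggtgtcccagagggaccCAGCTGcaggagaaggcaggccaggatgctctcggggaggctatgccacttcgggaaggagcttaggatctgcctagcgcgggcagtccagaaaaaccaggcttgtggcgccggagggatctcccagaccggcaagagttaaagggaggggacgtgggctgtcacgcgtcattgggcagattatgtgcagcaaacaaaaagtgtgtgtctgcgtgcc
The Prdm8 stretch holds 1 match, CAGCTG, 217 bases before the start, and the Lhx4 stretch holds none of these letters. A promoter was listed for 6 of the 9 genes. Vsx1 has CAGCTG 79 and 44 bases before its start, and Isl1 has CAGCTG at 103 and TAATCC at 177 bases. The promoter of Bhlhe23 and both of those listed for Lhx3 hold no match. Annotated exons overlap the windows of Vsx1, Isl1 and Lhx3, and none overlap those of Lhx4, Prdm8 and Bhlhe23. Over 32851 promoters of this length 13.0% hold CAGCTG, 6.25% TAATCC and 4.84% TAATTA. The promoters listed for the 6 genes are 54.4% to 71.2% G and C, against a median of 52.4% over all promoters. The shares are not matched for this, and whether matches are enriched was not tested. A match describes the letters of a window and shows no binding.

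The genotype differences at the 2 ages were then compared, although with 1 library per group they cannot be tested against the spread between mice. The difference at P7 was above that at P14 for 6 of the 9 genes, Vsx1, Irx5, Irx6, Lhx3, Lhx4 and Bhlhe22, by 0.36 to 0.54. The widest range that the bounds allow was taken for each difference. The ranges at the 2 ages were apart for 3 genes and overlapped for the others. They were apart for Vsx1 (0.30 to 0.56 at P7, -0.29 to 0.13 at P14), Bhlhe22 (-0.22 to 0.12 and -0.66 to -0.23 at the 2 ages, nearly touching) and Prdm8 (-0.18 to 0.06 and 0.07 to 0.39, also nearly touching). Vsx1 and Bhlhe22 had the higher difference at P7 and Prdm8 at P14. With doubled bounds 0 of the 3 were apart, and on a TPM scale Prdm8 was not. Of 12222 genes measured at both ages 3.04% were apart with the higher difference at P7 and 1.96% with the higher at P14. For 6 of the 9 genes the sign turned between the ages. The shares of all genes with the higher difference at P7, or with a turned sign, were not computed. Neither count of 6 is therefore read as particular to these genes. Bounds were apart at both ages with opposite signs for 0 of the 9, against 1.5% of all genes.

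**Figure D2:**
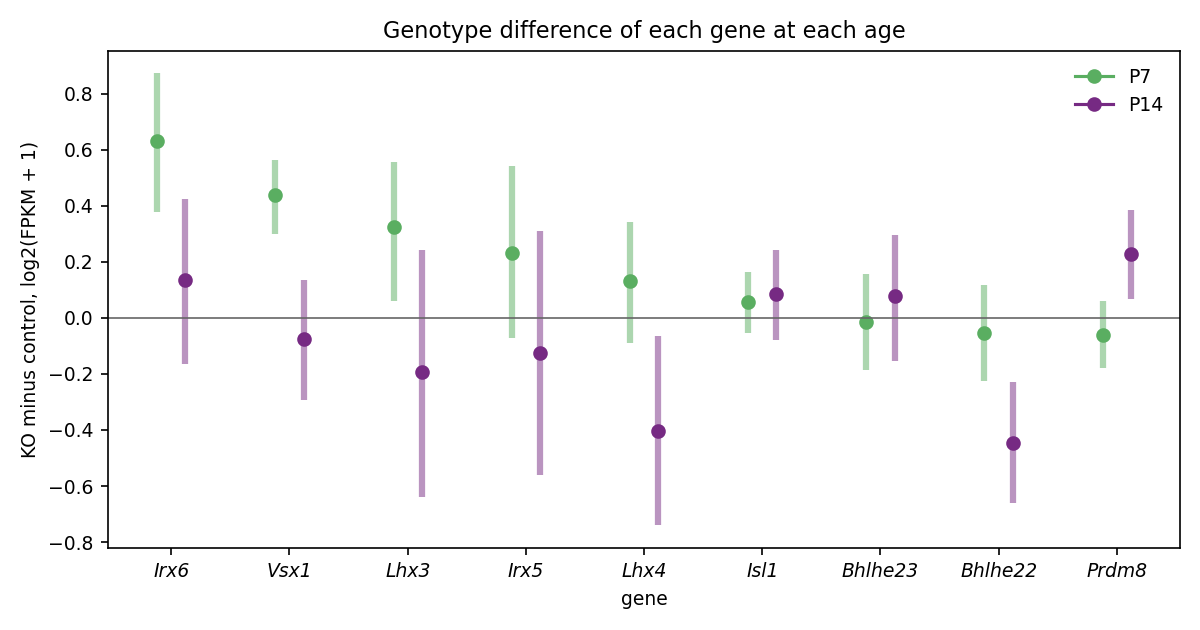
KO minus control difference in log2(FPKM + 1) for each gene at P7 (green) and P14 (purple), ordered by the P7 value; bars span the widest range the bounds of the 2 libraries allow. At P7 Irx6 (0.63), Vsx1 (0.44) and Lhx3 (0.32) lie above 0 with their bars, and at P14 Lhx4 (-0.41) and Bhlhe22 (-0.45) lie below 0 and Prdm8 (0.23) above it.

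A genotype difference shared by both ages was tested with limma in an additive model of genotype and age. It called 0 of the 9 genes, and 7 genes higher (0.0536%) and 27 lower (0.207%) of 13057 fitted. At an unadjusted p under 0.05 it held 1 of the 9, Irx6, with a difference of 0.38 ± 0.13 (SE), higher in the knockout library at both ages, and an adjusted p of 0.667 from limma. Of all genes fitted 7.31% passed that unadjusted threshold, so 1 of 9 is near the share over all genes. The next was Bhlhe22 (-0.25 ± 0.11, limma adjusted p = 0.684), lower in the knockout library at both ages. This fit has 1 residual degree of freedom and leans on a spread shared between genes. A difference that turns with age adds to its error.

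From P7 to P14 the levels of all 9 genes fell, by the age term of the same limma model (adjusted p from 7.74e-05 to 0.0274). Lhx3 fell most, from 16.1 to 5.16 FPKM in the control and from 20.4 to 4.38 FPKM in the knockout retina, to 32.0% and 21.5% of the P7 level. Lhx4 fell to 36.7% and 24.5%, Irx5 to 43.9% and 32.7% and Vsx1 to 45.4% and 31.4%, each in control and knockout in this order. Isl1 fell to 46.6% and 47.6%, nearly alike in both genotypes. These 5 genes were thus at 47.6% of their P7 level or below. The days between these ages are those in which bipolar cells mature and the eyes open.

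The other 4 genes fell less. Prdm8 went to 56.3% of its P7 level in the control and 69.1% in the knockout retina, Bhlhe23 to 67.2% and 71.9% and Bhlhe22 to 78.7% and 58.9%. Irx6 went to 87.1% in the control, with overlapping bounds, and to 60.5% in the knockout retina, where the bounds were apart. Thus 8 of 9 genes were lower beyond counting error in the control, where 37.7% of 13111 genes were, and 9 of 9 in the knockout retina, where 39.4% of 13043 genes were. In either genotype 0 of the 9 were higher, against 27.6% and 29.0% of all genes. The median age change was -0.99 in the control and -1.05 in the knockout retina, against -0.08 and -0.09 over all genes. The control and knockout libraries share no sample in these comparisons, but each also enters a genotype comparison, and the gap between the age changes of a gene in knockout and control is the same quantity as the gap between its genotype differences.

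The age term of the limma fit called all 9 genes lower at P14, where it called 38.9% of 13057 genes lower and 28.9% higher. The change of Lhx3 was -1.73 ± 0.14 (SE, limma adjusted p = 0.00015), that of Lhx4 -1.63 ± 0.14 (limma adjusted p = 0.000173) and that of Vsx1 -1.35 ± 0.13 (limma adjusted p = 0.00029). Isl1 had the smallest adjusted p in limma, 7.74e-05, with a change of -1.07 ± 0.07. Irx6 had the largest, 0.0274, with a change of -0.43 ± 0.13, and over the alternatives its adjusted p in limma ran from 0.00565 to 0.110, the last with no filter on low values.

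Other transcription factors of bipolar cells and their precursors were mostly lower at P14 as well, whereas genes of bipolar cells in general and of ON bipolar cells were mostly higher. Of 20 such factors measured in the control 16 were lower at P14 beyond counting error and 3 higher, with a median of -0.74. Otx2, a homeobox gene of photoreceptors and bipolar cells, went from 261 to 114 FPKM in the control and from 289 to 105 FPKM in the knockout retina. Sebox, a homeobox gene, was one of the 3 exceptions and went from 4.35 to 60.7 FPKM in the control and from 3.60 to 64.0 FPKM in the knockout retina.

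Genes of bipolar cells in general and of ON bipolar cells had a median age change of 1.07 in the control, with 17 of 20 higher beyond counting error and 2 lower. Trpm1, the transduction channel of ON bipolar cells, went from 10.2 to 38.7 FPKM in the control and from 8.73 to 32.8 FPKM in the knockout retina. OFF cone bipolar genes went both ways in the control, with 8 of 17 higher, 6 lower and a median of 0.21, and in the knockout retina 7 were higher, 9 lower and the median was -0.36. FPKM is a share of the library, and the summed level of 12 rod genes was 7737 FPKM at P7 and 25292 FPKM at P14 in the control, and 7953 and 27472 FPKM in the knockout retina. Scaling to a common median of well expressed genes raised the age changes by 0.13 in the control and 0.14 in the knockout retina on the log2 scale. It left 7 of the 9 transcription factors lower beyond counting error in the control, Bhlhe22 no longer among them, and 9 of 9 in the knockout retina.

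**Figure D3:**
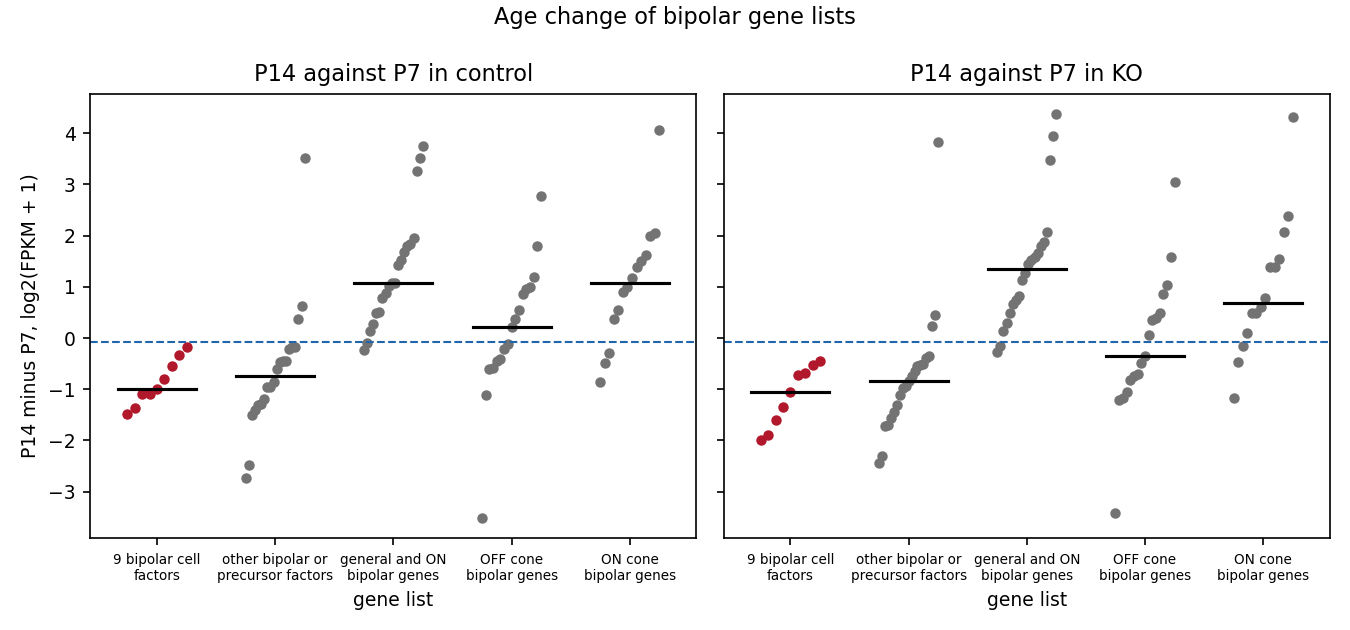
Change from P7 to P14 in log2(FPKM + 1) in the control (left) and KO retina (right) for the 9 bipolar cell factors (red) and 4 other bipolar gene lists (grey), 1 point per gene; black lines are list medians and the dashed line the median of all genes. The 9 factors all lie below 0, with medians of -0.99 and -1.05, while the general and ON bipolar genes have a median of 1.07 in the control.

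The same other factors were compared between the genotypes. At P7, 5 of 21 were higher in the knockout retina beyond counting error and 0 lower, with a median of 0.03. The zinc-finger homeobox gene Zfhx4 was at 10.1 against 7.45 FPKM (0.39), Ebf1 at 11.3 against 8.70 FPKM (0.34) and Six6 at 28.3 against 25.3 FPKM (0.16). At P14, 3 of 18 were lower, 1 was higher and the median was -0.07. The basic helix-loop-helix gene Neurod4 was at 75.6 against 95.1 FPKM (-0.33) and Meis2 at 20.03 against 24.6 FPKM (-0.28), both lower in the knockout retina. Genes of bipolar cells in general and of ON bipolar cells had 7 of 20 lower at P14, 3 higher and a median of -0.12. ON cone bipolar genes had 2 of 14 lower, 1 higher and a median of 0.06. OFF cone bipolar genes at P14 had 6 of 16 lower, 1 higher and a median of -0.18, with Cabp5 counted both here and in the general list. Among them Grik1 was at 14.6 against 27.8 FPKM (-0.89).

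Some of the 9 genes are also expressed outside bipolar cells, and markers of those cells are given beside them. Ganglion cells express Isl1, and 7 of 14 ganglion cell genes were higher in the knockout retina at P14 beyond counting error, 0 lower, with a summed level of 1283 FPKM (control) and 1474 FPKM (knockout). Starburst amacrine genes, of which 0 of 7 were higher and 1 lower at P14, summed to 38.1 and 40.4 FPKM. Cones express Lhx4, and the 12 cone genes had 2 higher and 3 lower at P14 and summed to 1199 and 1287 FPKM, while the cone arrestin gene Arr3 was at 26.2 against 40.9 FPKM (-0.62). Amacrine cells express Bhlhe22 and Prdm8, and of 10 amacrine genes 2 were higher and 1 lower. The part of these cells in the differences of Isl1, Lhx4, Bhlhe22 and Prdm8 was not tested.

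The 4 values of each gene were also compared with those of 9180 other genes at a mean of 5 FPKM or more, by the distance between log2 values centred on their mean over the 4 libraries. For Lhx3 the nearest was Mdk, which encodes the growth factor midkine, at 33.6, 43.6, 11.0 and 10.6 FPKM in control and knockout at P7 and then at P14, a distance of 0.11. For Lhx4 it was the neurexin gene Nrxn3, at 35.6, 38.1, 12.6 and 10.1 FPKM (0.08), and for Vsx1 it was Gatad2b, at 25.1, 32.1, 10.5 and 11.3 FPKM (0.15). Irx6 had no gene as near, and its nearest was Snhg5 at 12.7, 18.9, 10.01 and 9.95 FPKM (0.20). Lhx3 and Lhx4 were each other's nearest among the 9 (0.23), with 25 other genes nearer to Lhx3 and 15 nearer to Lhx4. With 4 values per gene these distances describe the libraries only.

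In the deposited tables, in mm9 and counted from 1, each gene is a single locus and no other listed locus overlaps it. Vsx1 lies on chromosome 2 from 150506440 to 150514873, Irx6 on chromosome 8 from 95198301 to 95203979, Lhx3 on chromosome 2 from 26055732 to 26062076, Lhx4 on chromosome 1 from 157548824 to 157589157, Bhlhe22 on chromosome 3 from 17954325 to 17957514 and Prdm8 on chromosome 5 from 98609888 to 98616467. GENCODE annotates an antisense gene that the tables do not list, Gm27196, over the start region of Lhx3 (GRCm38, chr2:26206702-26209283). That position and the deposited Lhx3 locus are in different builds, and whether Gm27196 reaches into the deposited locus was not checked. No strand-marking step is named for these libraries, so reads of any shared stretch cannot be assigned to 1 of these genes.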

How the data were processed

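Whole-retina libraries of 36-base single-end reads were made by the submitters from random-primed cDNA, per the labels' protocols. The authors deposited FPKM per gene with lower and upper bounds, for which the submitters' processing notes name Cufflinks 2.1.1, TopHat2 2.0.8b, CASAVA 1.8.2 and the mm9 build. The files hold no counts, so depth is known only through the bounds. Amplified reads are not independent molecules.

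Rows of 1 symbol were summed (Python 3.11.15, pandas 2.3.3). Of the 22558 symbols, 740 that are small RNAs or span under 300 bases were left out of counts over all genes, as were symbols with a failed level. Genes at 1 FPKM or more in either library were compared by their bounds and by log2(FPKM + 1), a scale that shrinks changes at low levels. limma 3.58.1 (R 4.3.3) fitted genotype and age with a variance trend over genes that reached 1 FPKM in 2 libraries or more, small RNAs included, using Benjamini-Hochberg adjustment and a threshold of 0.05. It was tested on simulated data, where the share of false calls ran above the nominal one and most changes of 1.25-fold were missed. Of 50 simulated genotype changes of 1.5-fold a median of 30 was recovered, and of 50 of 2-fold a median of 49.

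The 9 genes and all lists were chosen with earlier results of these data known. Named from other lists are up to 3 genes with bounds apart and the largest difference between genotypes, genes with the nearest pattern, and by choice after their values were seen Sebox, Otx2, Trpm1 and Irx3. Some genes of these lists are not reported here. Alternatives were other pseudocounts, scales, floors and widths of the bounds.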

Additional observations from a re-analysis of the deposited data

Results flagged for a closer look

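For 3 genes the knockout minus control difference at P7 and that at P14 lay apart by more than the bounds of the 4 libraries allow. With 1 library per group this was not tested against the spread between mice. Vsx1 had a log2 difference of 0.44 at P7 and -0.08 at P14, a gap of 0.52. Bhlhe22 had -0.05 and -0.45, a gap of 0.39. Prdm8 had -0.06 and 0.23, a gap of -0.29. In all 12222 genes measured at both ages 3.04% were apart in the direction of Vsx1 and 1.96% in that of Prdm8. With the bounds doubled in width 0 of the 3 stayed apart.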

How the results depend on the processing

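Of the 84 recomputed counts and medians 78 stayed within 1.5 times the reported count or within counting error, and 251 of 252 values of single genes kept their call or stayed within it. The 78 include counts of 0 that stayed 0, which wider bounds or a minimum fold cannot raise. They also include a median at P14 whose sign turned, given below. At P7 the count of genes higher in the knockout retina was 3 on the TPM and median-centred scales and with a minimum fold added, and 2 with doubled bounds, without Lhx3. At P14 the count higher in the knockout retina, which was Prdm8, became 0 with doubled bounds and 0 with a minimum fold added, and the count lower became 1 with doubled bounds, Bhlhe22. Differences apart between the ages, an addition made after the data were seen, became 0 in both directions with doubled bounds, and 0 in the direction of Prdm8 on a TPM scale. These losses with doubled bounds follow from wider bounds, and the cause of that on the TPM scale was not tested. For the genotype term limma called 0 of the 9 genes under every alternative run, with 0 to 2 of them at an unadjusted p under 0.05. Over all genes its genotype calls, 7 higher and 27 lower, became 2 and 0 with no filter on low values and 0 and 31 when loci of small RNAs or of short span were dropped (limma, with 955, 989 and 1185 genes at an unadjusted p under 0.05 in these fits). The median genotype difference of the 9 genes at P14 went from -0.08 to 0.08 among those at a mean of 5 FPKM or more, which leaves out Irx5 and Lhx3. No paired analysis by replicate number was possible because each group has 1 library. The limma model has age as a term and fits a genotype difference shared by both ages. Leaving out a library would empty a group.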

Other observations

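Relatives of the 9 genes in their families, a list added after the data were seen, gave further values. Irx3, the third gene of the Iroquois cluster that holds Irx5 and Irx6, was at 4.37 FPKM (control) and 4.64 FPKM (knockout) at P7, and at 1.98 and 3.03 FPKM at P14, with overlapping bounds between the genotypes at both ages. Lhx1, a LIM homeobox gene of horizontal cells, was higher in the knockout retina at P7 beyond counting error (7.54 against 5.20 FPKM). Isl2, a paralog of Isl1 in ganglion cells, was higher in the knockout retina at P14 (5.47 against 3.69 FPKM). Of 13 relatives measured at P7 1 was higher beyond counting error and 0 lower, and of 12 at P14 2 were higher and 1 lower.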
